A study of Mus musculus with 4 samples.

Results

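The genes described here are the cytosolic aminoacyl-tRNA synthetases and a set of genes that the transcription factor ATF4 is known to control. They were taken from the deposited count table by symbol: 42 genes, of 55401 gene models. The 42 comprised 20 synthetase genes and 22 other genes, the latter being Atf4 itself and its stress effectors (8), enzymes of amino acid synthesis (8) and amino acid transporters (6). Each symbol was found in the table, and each of the 42 passed the filter on low counts that left 15131 gene models for testing. RNA-seq was performed on tissue lying beside pancreatic tumours in mice that carried Panc02, a mouse line of pancreatic ductal adenocarcinoma (PDAC). There were 2 libraries from wild-type mice (WT 1 and WT 2) and 2 from mice labelled CRFR1-KO (CRFR1-KO 1 and CRFR1-KO 2), so that all 4 libraries shared the tumour and the site. The design text calls the knockout conditional and the title of the series speaks of mast cells, while no source used here names the Cre driver, the age of the mice or any pooling. CRFR1, encoded by Crhr1, is a receptor for the stress peptide corticotropin-releasing factor, and the series asks which signalling lies downstream of it.

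Aminoacyl-tRNA synthetases join each amino acid to its tRNA and so feed the ribosome. They fall into class I and class II, which use unrelated catalytic folds, and several of them sit together in the multisynthetase complex. When amino acids run short or unfolded protein builds up in the endoplasmic reticulum, kinases such as GCN2 and PERK phosphorylate the initiation factor eIF2alpha. General translation then slows while the mRNA of Atf4 is translated more, so the protein can rise without a change in its mRNA. ATF4 binds composite C/EBP-ATF response elements and raises the transcription of synthetases, amino acid transporters and enzymes of serine, asparagine and proline synthesis, together with stress genes such as Ddit3, Trib3 and Chac1. The acinar cell of the exocrine pancreas makes very large amounts of secreted enzyme and is known for its dependence on these pathways.

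The response element shows in the start regions of many of the 42 genes, and the stretches below are printed because they carry it in genes that the values further on turn on. The motif searched was its core, TGATGNAA, on both strands, in windows from 250 bases before to 50 bases after each start site in RefSeq (build GRCm38.p6). The sequences are from RefSeq, written 5′ to 3′ on the strand of the gene. Capitals mark the core, which reads TTNCATCA where it lies on the opposite strand. The stretch of Yars is chr4:129189876-129189932 (plus strand), that of Aars chr8:111033700-111033767 (plus), that of Gars chr6:55037941-55038008 (plus), that of Trib3 chr2:152344031-152344076 (minus), that of Chac1 chr2:119351019-119351086 (plus), that of Nupr1 chr7:126625543-126625610 (minus), that of Asns chr6:7693195-7693262 (minus) and that of Slc7a11 chr3:50443623-50443709 (minus).
Yars: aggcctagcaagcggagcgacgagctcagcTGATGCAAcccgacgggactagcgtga
Aars: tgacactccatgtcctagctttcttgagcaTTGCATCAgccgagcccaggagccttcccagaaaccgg
Gars: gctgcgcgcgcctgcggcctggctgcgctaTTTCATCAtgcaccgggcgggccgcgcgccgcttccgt
Trib3: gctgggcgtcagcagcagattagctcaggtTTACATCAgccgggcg
Chac1: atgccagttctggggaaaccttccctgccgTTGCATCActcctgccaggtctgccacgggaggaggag
Nupr1: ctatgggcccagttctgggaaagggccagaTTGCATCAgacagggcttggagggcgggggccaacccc
Asns: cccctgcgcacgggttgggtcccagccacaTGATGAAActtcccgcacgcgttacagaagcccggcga
Slc7a11: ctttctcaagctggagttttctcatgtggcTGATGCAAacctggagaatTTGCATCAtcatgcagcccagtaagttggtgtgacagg

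A RefSeq window was found for 32 of the 42 genes. Cars, Lars, Rars, Vars, Wars, Hars, Nars, Slc7a5, Slc7a3 and Cth are the other 10. The core was present in 13 of the 32 windows (40.6%), against 1219 of all 27025 genes with a window (4.51%). The genes other than the synthetases were listed as known ATF4 targets, so this comparison is no independent support for control by ATF4. The 13 were the synthetase genes Iars, Yars, Aars, Gars and Tars, and the other genes Trib3, Chac1, Nupr1, Vldlr, Asns, Pycr1, Slc7a11 and Slc1a4. Aars and Slc7a11 held a pair of cores each. Counted to the leftmost base of the core along the gene, most lay close to the start: 3 bases after it in Yars, 14 after it in Trib3, 23 before it in Asns and 30 before it in Gars. The Slc7a11 cores lay 66 and 47 bases before the start, and those of Nupr1, Chac1 and Vldlr lay at -110, -193 and -200. A match describes these letters in the window and does not show that ATF4 was bound, and start sites in RefSeq can differ from those used in the tissue.

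**Figure D1:**
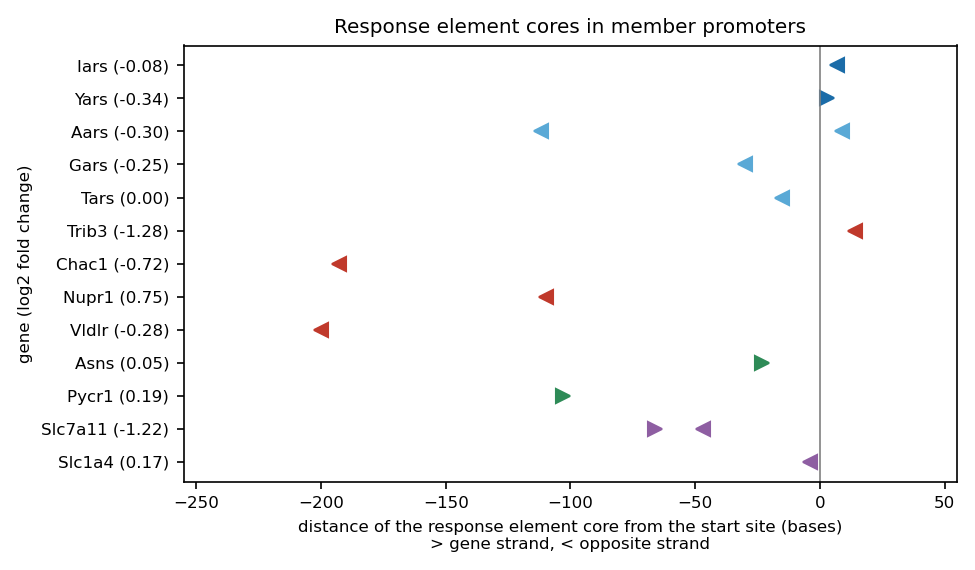
Position of each TGATGNAA core (triangles, pointing along its strand) relative to the RefSeq start site of the gene, in bases, for the 13 genes whose window holds it. The log2 fold change of CRFR1-KO over WT stands beside each symbol and runs from -1.28 for Trib3 to 0.75 for Nupr1.

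The libraries held between 63495457 and 71203640 counts, and their levels are given as counts-per-million (CPM) on scaled library sizes. Markers of acinar cells (26 genes, among them the genes of digestive enzymes) made up between 47.1% and 51.3% of the counts. Of 8 mast cell genes 6, including Cma1, Mcpt4 and Tpsb2, had a count of 0 in all libraries. Of the others, Cpa3 had counts of 39, 8, 33 and 4 in WT 1, WT 2, CRFR1-KO 1 and CRFR1-KO 2, and Hdc had 8 in WT 2 only. Crhr1 had a count of 0 in all 4 libraries and so could not serve to check which mice were knockouts. Separate animals are not stated for the libraries, and p-values therefore cover only their spread, which may be technical. WT 1 stood apart from the other 3. Its fibroblast markers (10 genes, 0 of them at 0) summed to 491 CPM, against 227 in WT 2 and 158 and 170 in the CRFR1-KO libraries. The collagen genes Col1a1, Col1a2 and Col3a1 carried most of that sum, at 73.4, 96.1 and 207 CPM in WT 1 against 14.5, 31.1 and 59.3 in WT 2. Of the 10 genes, 7 were higher in WT 1 than in WT 2, and 3 (Dcn, Pdgfra and Fap) were higher in WT 2. The islet markers of WT 1 (11 genes) summed to 46.3 CPM against 283, 247 and 305. Macrophage markers (9 genes) summed to 128 and 95.5 CPM in WT against 46.5 and 75.3 in CRFR1-KO. Ductal markers (10 genes) summed to 414 and 312 CPM against 284 and 268, and acinar markers to 408100 and 512500 CPM against 550800 and 497200. As shares of all counts, the acinar markers made up 48.2% and 47.1% in WT against 49.1% and 51.3% in CRFR1-KO. The order of the libraries in acinar markers thus depended on the scaling. Each of the 10 fibroblast and 9 macrophage genes and 8 of the 10 ductal genes was measured lower in CRFR1-KO. On the other side, 21 of the 26 acinar, 10 of the 11 islet and 4 of 7 endothelial genes were measured higher. The part that these other cells play in the values below was not tested, and in bulk tissue fewer cells of a type and less RNA per cell cannot be told apart.

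Per kilobase of exon, the order of the 42 genes was led by stress and synthesis genes. Nupr1, which encodes a small chromatin protein induced by stress and known from acute pancreatitis, was the most abundant at 303 CPM per kb (mean of the 4 libraries, with single libraries from 166 to 408), above any value of the other 41 genes. Asns, encoding asparagine synthetase, followed at 58.3 (49.9 to 64.8) and Phgdh, which starts serine synthesis, at 45.1 (37.6 to 50.9), so that the ranges of this pair overlapped. Wars, the tryptophanyl-tRNA synthetase gene, stood at 34.7 (20.2 to 54.8) and Atf4 at 31.4 (26.7 to 36.5). The wide range of Wars overlapped those of Asns, Phgdh, Atf4 and Slc3a2, so its place among them is not settled. Next came Slc3a2 at 19.2, Slc6a9 at 13.2, Nars at 12.9, Aldh18a1 at 12.4, Pycr1 at 12.2, Gars at 11.6, Mars1 at 10.8 and Slc7a5 at 10.5 CPM per kb, and from Slc6a9 on the ranges of neighbours overlapped. The least abundant were Slc7a11 at 0.29, Trib3 at 0.663, Psph at 0.694 and Sesn2 at 0.788 CPM per kb, the first being the cystine transporter gene and the second the gene of a pseudokinase that restrains ATF4. The length used was that of all annotated exons of a gene merged, 13922 bases for Slc7a11. Without division by length, Slc7a11 had a mean of 4.03 CPM, above Trib3 (1.41), Sesn2 (2.74) and Psph (3.00).

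CRFR1-KO against WT gave no member past the adjusted threshold. With edgeR's quasi-likelihood test adjusted over all 15131 genes, 0 of the 42 passed (0.0264% of all tested genes did), and the smallest edgeR adjusted p among them was 0.682, for Vars. The DESeq2 Wald test also called 0 of the 42 (0.326% of all genes) and limma-voom 0 (0.0%). At an unadjusted edgeR p under 0.05, 4 of the 42 lay lower in CRFR1-KO (Vars, Trib3, Slc7a11 and Slc7a5; 3.15% of all genes did) and 1 lay higher (Nupr1; 1.71%). DESeq2 gave 6 and limma-voom 5 of the 42 at an unadjusted p under 0.05, beside 584 and 692 of all 15131 tested genes. Both CRFR1-KO libraries were below both WT libraries for 8 of the 42 (16.9% of all genes) and above both for 3 (16.6%), while for the other 31 the groups overlapped.

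The 42 fold changes had a median of -0.08 on the log2 scale, beside -0.01 over all tested genes, with 25 lower and 17 higher. On library totals, a scaling that moved the median of all genes to -0.13, the split was 35 lower to 7 higher with a median of -0.20. The WT libraries lay further apart than this in their median deviations, which are given below. On scaled library sizes, WT 2 was above WT 1 for 34 of the 42 genes (81.0%, against 48.4% of all tested genes). The median absolute gap between the pair of WT libraries was 0.36 on the log2 scale, beside 0.27 over all tested genes. This order depends on the scaling, whose factors were 1.182 for WT 1 and 0.919 for WT 2. On library totals the ratio of WT 2 to WT 1 would be lower for every gene than on scaled sizes. Mars1 had 3019 counts in WT 1 and 2554 in WT 2, whose total was larger, so its order would turn. Slc7a5, with 2662 and 4883 counts, would keep its order. The order of the libraries was not counted over the 42 genes on library totals. On scaled sizes, CRFR1-KO 2 was above CRFR1-KO 1 for 32 (76.2%, against 49.9%), with a median absolute gap of 0.23 (0.22 over all tested genes). WT 2 was the highest library for 24 of the 42 genes and CRFR1-KO 1 the lowest for 21. The median deviation from the mean of a gene was -0.08 for WT 1, 0.18 for WT 2, -0.11 for CRFR1-KO 1 and 0.02 for CRFR1-KO 2.

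**Figure D2:**
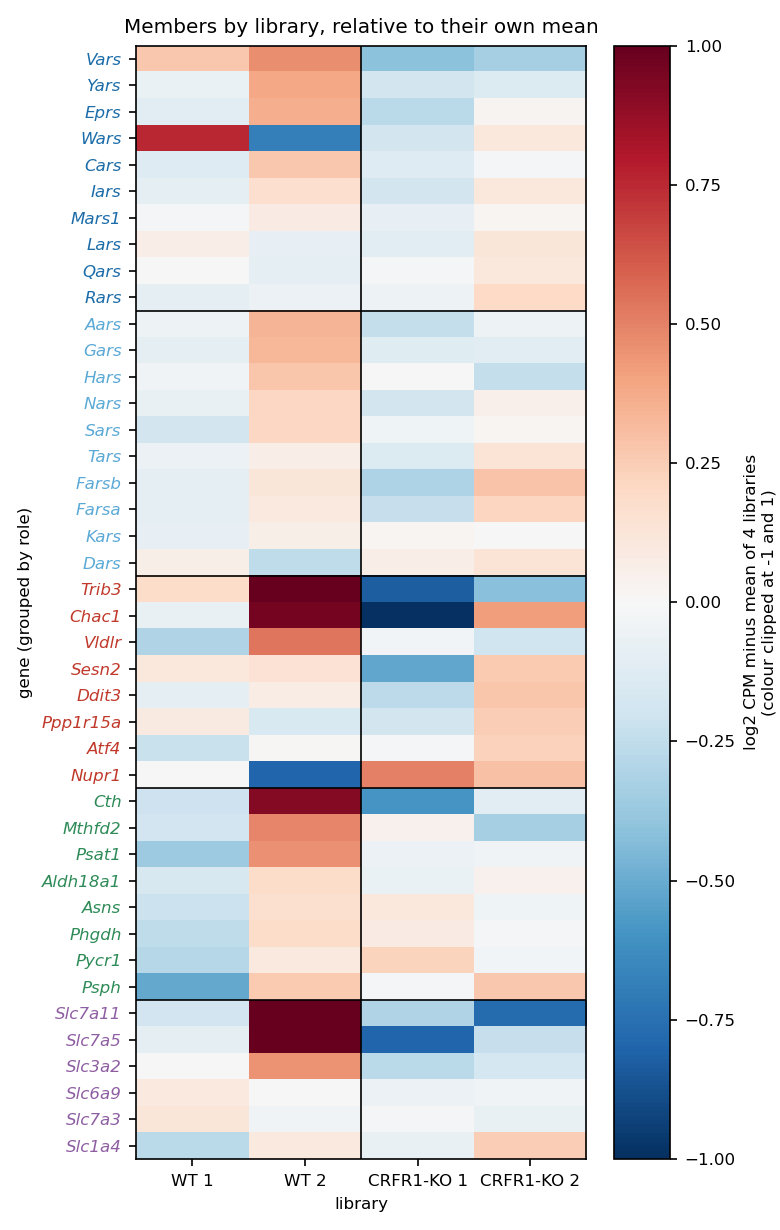
Level of each of the 42 genes in each library as log2 CPM minus the mean of the gene over the 4 libraries (red above, blue below, colour clipped at -1 and 1), grouped by role. On scaled library sizes, the column of WT 2 is red for most genes, being above WT 1 for 34 of the 42, while Wars and Nupr1 run the other way.

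The 20 synthetase genes lay close together in the 2 genotypes. Their median log2 fold change was -0.07, with 12 lower and 8 higher (18 lower and 2 higher on library totals, and 15 and 5 with upper quartile scaling), and 15 of the 20 were within 0.25 of no difference. Standard errors (SE) of single genes ran from 0.16 to 0.42. The deviations of the synthetases from their own means had a median of -0.07 for WT 1, 0.14 for WT 2, -0.13 for CRFR1-KO 1 and 0.04 for CRFR1-KO 2, and their levels summed to 628, 588, 515 and 582 CPM in that order. The pooled SD of the library medians inside the genotypes was 0.135, which is larger than the difference of -0.07. On scaled library sizes, WT 2 was above WT 1 for 16 of them and CRFR1-KO 2 above CRFR1-KO 1 for 18. The 10 class I genes had a median of -0.12 (7 lower) and the 10 class II genes one of -0.02 (5 lower), with 9 of 10 lower in each class on library totals and 8 of the class II genes with upper quartile scaling. Without WT 2, 5 class I and 3 class II genes were lower, and without WT 1, 6 and 9.

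Vars, encoding valyl-tRNA synthetase, which associates with elongation factor eEF1, had the smallest p of all 42 genes (ENSMUSG00000007029; chromosome 17, 35000987 to 35016322, GRCm38). It had 1919 and 1739 counts in the WT libraries against 906 and 1002 in the CRFR1-KO libraries, or 23.2 and 26.6 CPM against 14.5 and 15.3 CPM. The groups did not overlap, and the gap between them was wider than that inside either. Means were 24.9 ± 2.37 CPM for WT against 14.9 ± 0.573 CPM for CRFR1-KO (SD, n = 2 libraries each), which is 0.599 times the WT level (-0.74 on the log2 scale, SE 0.17). The edgeR adjusted p was 0.682 and the DESeq2 adjusted p 0.119. Over all settings and left-out libraries the log2 fold change of Vars stayed between -0.85 and -0.64.

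The remaining class I genes differed by less. Yars, for tyrosine, stood at 21.1 and 28.9 CPM in WT against 19.5 and 20.1 in CRFR1-KO (-0.34 on the log2 scale, SE 0.20), so the groups were apart but WT 1 lay near the CRFR1-KO pair. Eprs, which encodes a bifunctional enzyme for glutamate and proline, stood at 26.6 and 37.1 CPM in WT against 23.9 and 29.4 in CRFR1-KO, with WT 1 between the CRFR1-KO libraries (-0.26, SE 0.22). Mars1, for methionine, was nearly level at 36.5, 39.0, 34.9 and 37.5 CPM in WT 1, WT 2, CRFR1-KO 1 and CRFR1-KO 2 (-0.06, SE 0.16), and Rars, for arginine, stood at 9.41, 9.61, 9.68 and 11.5 CPM (0.16, SE 0.18). Both CRFR1-KO values of Rars were above both WT values, by a margin that was small beside the gap between the CRFR1-KO libraries.

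Wars was the least stable synthetase gene. Tryptophanyl-tRNA synthetase is known to be induced by interferon gamma as well as by ATF4. Wars stood at 189 CPM in WT 1 but 69.8 CPM in WT 2, with both CRFR1-KO libraries, at 98.6 and 121 CPM, in between. Its log2 fold change of -0.24 had an SE of 0.42, the largest of the synthetases. The sign turned with WT 1, the value being 0.65 without WT 1 and -0.78 without WT 2.

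Among the class II genes, Aars (alanine) stood at 23.7 and 31.2 CPM in WT against 20.8 and 23.7 in CRFR1-KO (-0.30, SE 0.20), and Aars shares exon bases with Exosc6, so its count depends on how reads were divided. Gars, whose glycyl-tRNA synthetase serves the cytosol and the mitochondrion, stood at 33.6 and 45.3 CPM in WT against 33.1 and 33.2 in CRFR1-KO (-0.25, SE 0.20). The Gars groups were apart, yet WT 1 lay within 1 CPM of both CRFR1-KO libraries, and it was WT 2 that stood high. Hars (histidine) stood at 12.0, 14.9, 12.3 and 10.4 CPM (-0.24, SE 0.19), Nars (asparagine) at 53.0, 64.5, 49.3 and 57.9 CPM (-0.13, SE 0.19) and Dars (aspartate) at 14.2, 11.4, 14.3 and 15.0 CPM (0.19, SE 0.18), each in the order WT 1, WT 2, CRFR1-KO 1, CRFR1-KO 2. The groups overlapped for Hars and Nars, while for Dars the CRFR1-KO values were above the WT values by less than the gap inside WT. The other 9 synthetase genes, Cars, Iars, Lars, Qars, Kars, Sars, Tars, Farsa and Farsb, lay between -0.15 (Cars) and 0.09 (Qars), and all 9 overlapped. Exons of Hars overlap those of Hars2 on the opposite strand, those of Yars C77080, those of Farsb Sgpp2, and those of Mars1 the ATF4 target Ddit3, and no source used here says whether the counting used strand.

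Split by the multisynthetase complex, a grouping made after the values were seen, the 8 synthetase genes Eprs, Iars, Lars, Mars1, Qars, Rars, Kars and Dars had a median of 0.01 (3 lower, 5 higher). The other 12 had a median of -0.20 (9 lower, 3 higher). On library totals 6 of the 8 and 12 of the 12 were lower, and with upper quartile scaling 3 and 12. Without WT 2 the medians were 0.05 and 0.00, with 2 of the 8 and 6 of the 12 lower. The difference between these groupings was not tested. The scaffold genes of the complex were also measured. Aimp1 stood at 7.68, 8.27, 10.5 and 8.52 CPM in the same order of libraries (0.26, SE 0.19), Aimp2 at 2.93, 3.90, 3.36 and 2.89 CPM (-0.13, SE 0.27, and 0.10 without WT 2) and Eef1e1 at 2.36, 2.93, 1.18 and 3.22 CPM (-0.26, SE 0.47).

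**Figure D3:**
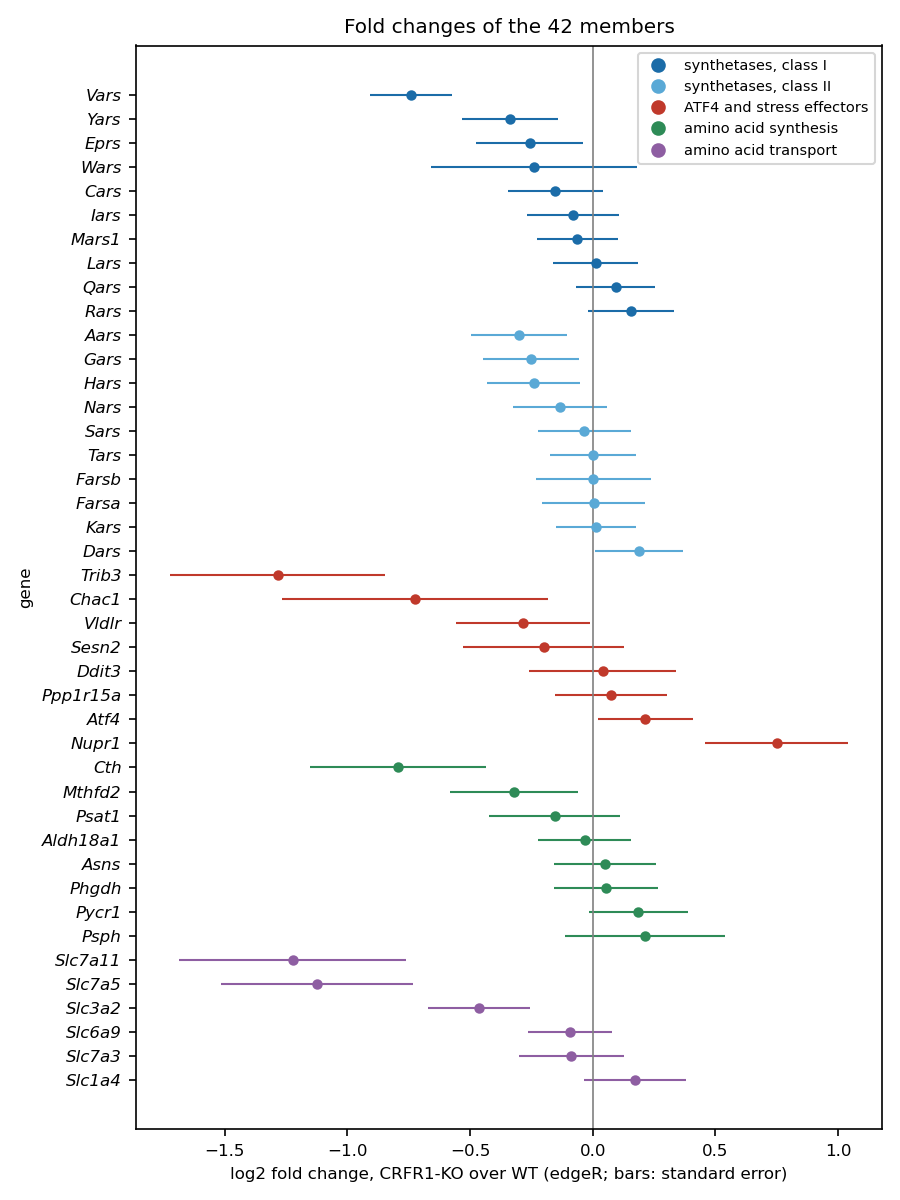
Log2 fold change of CRFR1-KO over WT for the 42 genes (points, edgeR; bars, standard error), coloured by role, with the 10 class I and 10 class II synthetases at the top. The largest differences belong to Trib3 (-1.28), Slc7a11 (-1.22) and Slc7a5 (-1.12) on the lower side and Nupr1 (0.75) on the higher side, and 0 of the 42 passed the adjusted threshold. Library totals turn the sign of 10 of the 42, Asns and Phgdh among them.

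Atf4 and its stress effectors lay on both sides of WT, with 4 of 8 lower, 4 higher and a median of -0.08 (6 lower on library totals). The median was 0.21 without CRFR1-KO 1, -0.22 without CRFR1-KO 2, -0.13 without WT 1 and 0.05 without WT 2. The mRNA of Atf4 stood at 63.0 and 74.1 CPM in WT against 73.0 and 86.1 in CRFR1-KO (0.22, SE 0.19, edgeR adjusted p = 1), and CRFR1-KO 1 lay between the WT libraries. RNA levels do not measure ATF4 protein, which is set mostly by translation. Ddit3 (CHOP), at 2.43, 2.72, 2.16 and 3.13 CPM, Sesn2, an inhibitor of mTORC1 signalling, at 2.89, 2.96, 1.87 and 3.22 CPM, and Ppp1r15a (GADD34), which recruits the eIF2alpha phosphatase, at 6.23, 5.29, 5.15 and 6.97 CPM, had log2 fold changes of 0.04, -0.20 and 0.07. For all 3 of these genes CRFR1-KO 1 was the lowest library and CRFR1-KO 2 the highest, so the WT values lay inside the CRFR1-KO range. Their signs turned with a CRFR1-KO library left out. Ddit3 was at -0.24 and Ppp1r15a at -0.15 without CRFR1-KO 2, and Sesn2 was at 0.14 without CRFR1-KO 1. Exons of Ppp1r15a overlap those of Tulp2 on the opposite strand, which had 29, 178, 49 and 63 counts in WT 1, WT 2, CRFR1-KO 1 and CRFR1-KO 2. Vldlr, a lipoprotein receptor gene, stood at 14.9, 26.7, 18.1 and 16.1 CPM (-0.28, SE 0.27, and 0.20 without WT 2).

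Trib3 and Chac1 had larger differences with larger errors. Trib3 (ENSMUSG00000032715; chromosome 2, 152337422 to 152344032, GRCm38) stood at 1.42 and 2.58 CPM in WT against 0.704 and 0.932 in CRFR1-KO, and the groups did not overlap. Its means were 1.999 ± 0.825 and 0.818 ± 0.161 CPM (SD, n = 2 libraries each). The value of -1.28 on the log2 scale (SE 0.44, edgeR adjusted p = 0.977) was the lowest of the 42 genes. Chac1, which encodes an enzyme that degrades glutathione, stood at 10.2 and 20.7 CPM in WT against 4.34 and 14.3 in CRFR1-KO. The gap between the CRFR1-KO libraries of Chac1 was 3.30-fold and the groups overlapped (-0.72, SE 0.54, edgeR adjusted p = 1).

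Nupr1 was the only one of the 42 genes at an unadjusted edgeR p under 0.05 on the higher side (ENSMUSG00000030717; chromosome 7, 126623249 to 126630861, GRCm38). It stood at 721 and 416 CPM in WT against 1026 and 886 in CRFR1-KO, and the groups did not overlap. Its means were 568 ± 215 and 956 ± 99.1 CPM (SD, n = 2 libraries each), a fold of 1.68 (0.75 on the log2 scale, SE 0.29, edgeR adjusted p = 1; DESeq2 adjusted p = 0.275). WT 2, which on scaled library sizes was the highest library for most of the 42 genes, was the lowest for Nupr1. The fold thus rested in part on WT 2, and was 0.41 on the log2 scale without it and 1.20 without WT 1.

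The 8 genes of amino acid synthesis showed the order of the libraries most plainly. On scaled library sizes, WT 2 was above WT 1 for 8 of 8, WT 1 was the lowest library for 6, and the groups overlapped for all 8. Their median log2 fold change was 0.01, with 4 lower and 4 higher (6 lower on library totals). That balance turned with the WT library kept: 7 of 8 were lower without WT 1 (median -0.17) and 7 of 8 higher without WT 2 (median 0.28). Asns stood at 136 and 177 CPM in WT against 171 and 154 in CRFR1-KO, and Phgdh at 93.4 and 127 CPM in WT against 118 and 110 in CRFR1-KO. For both genes the CRFR1-KO values lay between the WT values. Asns and Phgdh had log2 fold changes of 0.05 (SE 0.21) and 0.06 (SE 0.21), which became -0.06 and -0.05 on library totals.

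Psph, which completes serine synthesis, stood at 2.06, 3.51, 2.90 and 3.54 CPM in WT 1, WT 2, CRFR1-KO 1 and CRFR1-KO 2 (0.21, SE 0.33, and -0.12 without WT 1), and its exons overlap those of Cct6a on the opposite strand. Pycr1, the last enzyme of proline synthesis, stood at 39.0, 50.9, 55.5 and 46.8 CPM (0.19, SE 0.20), and Mthfd2, a mitochondrial enzyme of folate metabolism, at 25.7, 41.2, 30.2 and 23.3 CPM (-0.32, SE 0.26, and 0.06 without WT 2). Psat1, the middle step of serine synthesis, and Aldh18a1, which starts proline synthesis, were at -0.15 and -0.03. Cth, encoding cystathionine gamma-lyase, which makes cysteine, differed most in this group. It stood at 10.8 and 23.6 CPM in WT against 8.27 and 11.5 in CRFR1-KO (-0.79, SE 0.36, edgeR adjusted p = 1). WT 1 lay between the CRFR1-KO values, and without WT 2 the log2 fold change of Cth was -0.12.

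Of the 6 transporter genes, 5 were measured lower in CRFR1-KO and 1 higher, at a median log2 fold change of -0.28, and 4 of the 6 had groups that did not overlap on the lower side (16.9% of all tested genes). Slc7a5 encodes LAT1, which exchanges large neutral amino acids, and Slc7a11 encodes xCT, which imports cystine in exchange for glutamate. Both proteins reach the membrane paired with the heavy chain 4F2hc (CD98), the product of Slc3a2. For the 3 genes of these pairs, both CRFR1-KO values were below both WT values.

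Slc7a5 (ENSMUSG00000040010; chromosome 8, 121881150 to 121907694, GRCm38) stood at 32.2 and 74.6 CPM in WT against 19.8 and 29.2 in CRFR1-KO, or 53.4 ± 30.0 against 24.5 ± 6.66 CPM (SD, n = 2 libraries each). WT 2 was 2.32 times WT 1, and WT 1 was little above CRFR1-KO 2. Slc7a5 was at -1.12 on the log2 scale (SE 0.39, edgeR adjusted p = 0.985). Without WT 1 it was -1.61 with an edgeR adjusted p of 0.0465, the one call of a member in any setting, and without WT 2 it was -0.39. With a library left out, the lone one of its group is assumed to vary like the other group.

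Slc7a11 (ENSMUSG00000027737; chromosome 3, 49892526 to 50443614, GRCm38) stood at 3.02 and 8.28 CPM in WT against 2.80 and 2.03 in CRFR1-KO, or 5.65 ± 3.72 against 2.42 ± 0.543 CPM (SD, n = 2 libraries each). Again WT 2 stood high, while WT 1 lay near CRFR1-KO 1 and further above CRFR1-KO 2. Slc7a11 was at -1.22 on the log2 scale (SE 0.46, edgeR adjusted p = 1), and -0.32 without WT 2. Slc3a2 stood at 66.5 and 90.5 CPM in WT against 55.2 and 58.8 in CRFR1-KO (-0.46, SE 0.21, edgeR adjusted p = 1), and -0.22 without WT 2. The glycine transporter gene Slc6a9 was almost level at 72.8, 67.8, 65.2 and 66.5 CPM (-0.09, SE 0.17) and its exons overlap B4galt2 and Ccdc24 on the opposite strand. Slc1a4, for neutral amino acids, stood at 8.29, 10.7, 9.52 and 11.9 CPM (0.17, SE 0.21, and about 0 without WT 1), and Slc7a3, a transporter gene for basic amino acids, was at -0.09.

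**Figure D4:**
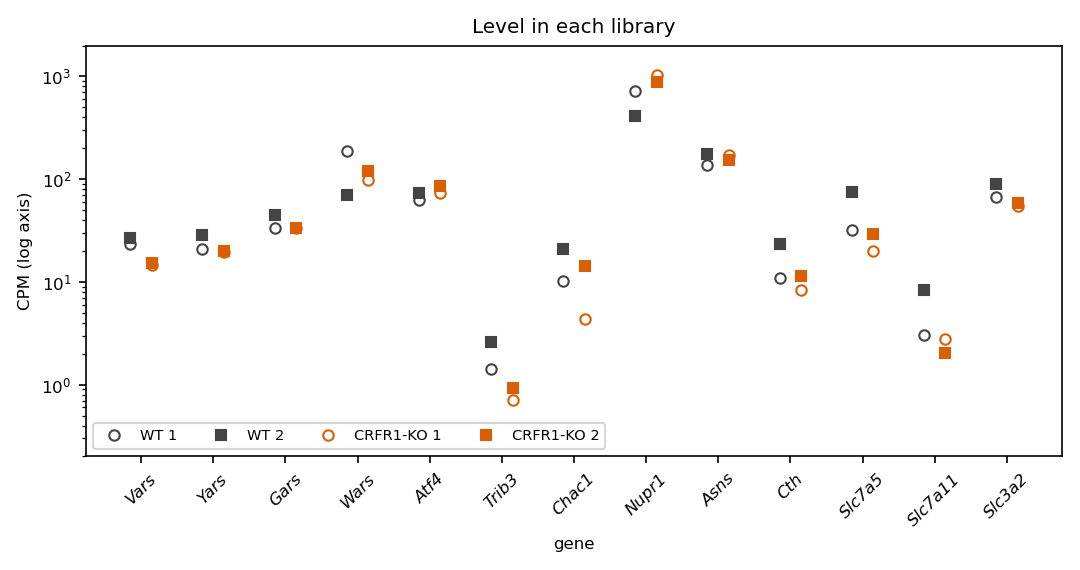
Level in CPM (log axis) of 13 of the 42 genes in each library, with WT in grey and CRFR1-KO in orange, replicate 1 as circles and replicate 2 as squares. On scaled library sizes, the WT 2 square stands above the WT 1 circle for most genes, as for Slc7a5 (74.6 against 32.2 CPM). It stands below for Wars and Nupr1.

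Most of the larger differences were smaller without WT 2. Without WT 2 the median log2 fold change of the 22 ATF4 genes went from -0.09 to 0.10 and that of the synthetases from -0.07 to 0.03, and 18 of the 42 genes were lower in place of 25. Without WT 1 the medians were -0.17 and -0.16, with 33 of the 42 lower. The value of Trib3 was -0.79 without WT 2 and -1.65 without WT 1, that of Cth -1.25 without WT 1, and that of Slc7a11 -1.78 without WT 1. Chac1 turned on both groups, at -0.12 without WT 2, at -0.11 with CRFR1-KO 1 left out and at -1.82 with CRFR1-KO 2 left out. Vars moved least among the genes with a difference beyond 0.4, from -0.64 without WT 2 to -0.83 without WT 1.

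**Figure D5:**
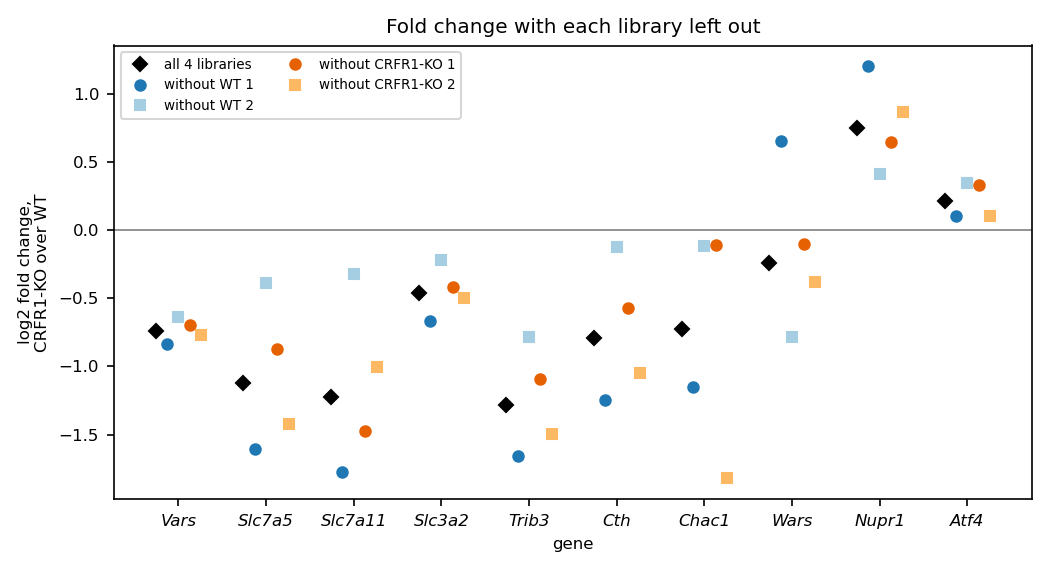
Log2 fold change of CRFR1-KO over WT for 10 of the 42 genes with all 4 libraries (black diamonds) and with each library left out in turn (coloured). Vars stays between -0.83 and -0.64, Slc7a5 ranges from -1.61 to -0.39 and Wars from -0.78 to 0.65, crossing 0.

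Genes with the response element core in their window lay on both sides of WT. The 13 genes with the core had a median log2 fold change of -0.25, with 8 lower, and a range from -1.28 (Trib3) to 0.75 (Nupr1). The 19 without it had a median of 0.00, with 9 lower, and a range from -0.46 (Slc3a2) to 0.22 (Atf4). The 10 genes without a RefSeq window are in neither group, among them Slc7a5 (-1.12), Cth (-0.79) and Vars (-0.74). Of those 10, only Lars (0.01) and Rars (0.16) were higher in CRFR1-KO. Without WT 2 the medians were 0.06 (6 lower) and 0.09 (5 lower), and without WT 1 they were -0.45 (11 lower) and -0.11 (15 lower). On library totals 10 of the 13 and 16 of the 19 were lower, and with upper quartile scaling 9 and 11. These medians were not compared by a test. Nupr1 and Trib3, whose printed windows both hold the core, lay at opposite ends of all 42 genes.

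Related lists are given for setting. Of the 17 mitochondrial synthetase genes, 12 were measured higher in CRFR1-KO and 5 lower, at a median of 0.13 (7 lower and a median of 0.02 on library totals), with 6 not overlapping on the higher side (16.6% of all tested genes) and 3 on the lower side (16.9%). The median was 0.02 without WT 1, with 8 lower, and 0.26 without WT 2, with 5 lower. Of the 17 genes, 0 passed edgeR's adjusted threshold (1 at an unadjusted p under 0.05), and the calls by limma-voom and by DESeq2 were also 0. Vars2, the mitochondrial counterpart of Vars, stood at 3.05 and 3.21 CPM in WT against 4.46 and 4.84 in CRFR1-KO (0.57, SE 0.22, edgeR adjusted p = 1, and the gene of the list at an unadjusted p under 0.05), so the 2 valine genes lay on opposite sides of WT. Iars2, which with Lars2 was the most abundant of the list per kilobase (1.94 and 1.91 CPM per kb, with overlapping ranges over libraries), stood at 15.2, 18.8, 17.5 and 17.5 CPM in WT 1, WT 2, CRFR1-KO 1 and CRFR1-KO 2 (0.04, SE 0.18, and -0.07 on library totals).

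Upstream of ATF4, the 14 genes of eIF2alpha kinases and eIF2 machinery had a median of -0.03, with 8 lower and 6 higher (11 and 3 on library totals), all between -0.40 and 0.21. The median was -0.21 without WT 1 (11 lower) and 0.08 without WT 2 (5 lower), and -0.12 and 0.03 without CRFR1-KO 1 and CRFR1-KO 2 (9 and 6 lower). Eif2ak3, which encodes PERK and is known to be abundant in pancreas, stood at 80.5 and 71.7 CPM in WT against 84.0 and 70.9 in CRFR1-KO (0.02, SE 0.19, and -0.12 on library totals). Of 21 other genes tied to ATF4 (Cars2 and Nars2 are also in the mitochondrial list), 17 were lower and 4 higher, at a median of -0.13, with 7 not overlapping on the lower side (16.9% of all tested genes) and 0 on the higher side (16.6%). Without WT 2 the split was 11 lower to 10 higher with a median of 0.00, and without WT 1 the median was -0.31. Ddit4, encoding REDD1, an inhibitor of mTORC1, differed most clearly, at 10.8 and 12.8 CPM in WT against 3.87 and 6.57 in CRFR1-KO (-1.17 on the log2 scale, SE 0.27). DESeq2 called Ddit4 lower (adjusted p = 0.0498) and edgeR did not (adjusted p = 0.718). Ddit4 is also induced by glucocorticoids and by low oxygen. Herpud1, a gene of endoplasmic reticulum protein degradation, was the most abundant of these per kilobase, at 134 and 247 CPM in WT against 162 and 174 in CRFR1-KO (-0.18, SE 0.30, and 0.34 without WT 2).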

How the data were processed

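Poly(A)-selected mRNA was made into libraries with a dUTP-marked second strand, per the labels' protocols. The authors deposited whole-number counts per gene model, without normalization. FastQC, DESeq2 and edgeR were used, per the submitters' processing notes. For the aligner, annotation, build and strand setting, the sources used here give nothing. A count of 4 was commoner than 3 or 5 (913, 349 and 242 genes in WT 1), so what 1 deposited count stands for is not known. Identifiers were matched to symbols and exon lengths in GENCODE M21 (55141 matched, 260 not). The test was that of edgeR 4.0.16 in R 4.3.3 (TMM scaling, filterByExpr with its minimum count of 10, quasi-likelihood F test, two-sided, Benjamini-Hochberg over 15131 genes, threshold 0.05). SEs were derived from F. DESeq2 1.42.0 and limma 3.58.1 were alternatives, beside other scalings, filters, summed gene models, a block on replicate number and each library left out. The edgeR step was run on simulated counts with known fold changes, and the share recovered is not given here. With 2 libraries in each genotype, a gene without a call is not shown to be unchanged. Members and lists were chosen with earlier results of these data known. Genes given library by library were those at an unadjusted p under 0.05 and, per role, up to 4 with the smallest p and the 2 most abundant per length. The values of Ddit3, Sesn2, Ppp1r15a, Vldlr, Aimp1 and Eef1e1 were added after they were seen. No per-sample column was left unmapped (0).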

Additional observations from a re-analysis of the deposited data

How the results depend on the processing

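The count of the 42 genes past the threshold was 0 in every setting except without WT 1, where it was 1, so leaving out a library gave 0 to 1. Over all genes, 4 calls became 59 with the DESeq2 Wald test, 0 with limma-voom, 0 with exon-sharing models summed, and between 0 and 69 with 1 library left out (40 without WT 1, 69 without WT 2, then 2 and 0 for CRFR1-KO 1 and CRFR1-KO 2). With the replicate block there were 7, of which 0 among the 42. The labels share only a replicate number (correlation of same-numbered deviations -0.07). The median log2 fold change of the synthetases ran from -0.211 to 0.032 with 1 library left out and that of the ATF4 genes from -0.169 to 0.095. On library totals Asns stood at -0.06, Phgdh at -0.048, Iars2 at -0.066 and Eif2ak3 at -0.122. Over left-out libraries Asns ran from -0.125 to 0.255, Phgdh from -0.145 to 0.295, Psph from -0.124 to 0.651, Slc1a4 from -0.001 to 0.372, Wars from -0.782 to 0.652, Eprs from -0.474 to 0.006, Nars from -0.265 to 0.02, Mthfd2 from -0.62 to 0.064, Aimp2 from -0.317 to 0.098, Herpud1 from -0.552 to 0.336, Iars2 from -0.101 to 0.21 and Eif2ak3 from -0.101 to 0.151. Of 32 named genes, chosen by small p or abundance, 20 kept their direction in all 15 settings and 12 did not. Ddit3, Sesn2, Ppp1r15a and Vldlr were not among the 32, and each changed sign with a library left out. The cause was not tested.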
